A study of Mus musculus with 18 samples.

Results

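The cytosolic ribosome of the mouse is built from a large (60S) subunit with Rpl proteins and a small (40S) subunit with Rps proteins. Its protein genes were taken here as all protein-coding genes named Rpl or Rps with a number and an optional letter or l suffix, with Rplp0, Rplp1, Rplp2 and Rpsa, and without the Rps6k kinases. The rule found 84 genes among 29433 genes with a count, 52 of the large and 32 of the small subunit. Enough counts for a test were present for 82 of them. Rpl10l was listed at 0 in every library, and Rpl39l reached at most 0.439 TPM (a level relative to transcript length and library total), so neither was tested.

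Most genes of this set are housekeeping genes whose mRNAs begin with a 5′ terminal oligopyrimidine (TOP) tract, a C followed by further pyrimidines, through which their translation follows nutrient and growth signals. Several have paralogues, and the best known in muscle is the pair of uL3 proteins. Rpl3 is the form of nearly all tissues, and Rpl3l takes its place in the ribosomes of adult skeletal muscle and heart. In mouse muscle, Rpl3l is known to give way to Rpl3 during hypertrophic growth.

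RNA of the tibialis anterior (TA), a fast muscle of the lower leg, was sequenced after poly(A) selection in 18 libraries of 9 groups, 2 libraries a group. The LLC tumour group carried Lewis lung carcinoma cells injected into muscle and was set against a group given PBS (C57BL/6 mice). The KPCML1 and KPC tumour groups carried tumour cells placed orthotopically (1000 and 50000 cells), and both were set against the same Matrigel-injected group (C57BL/6), so these comparisons share their controls. The C26 tumour group carried colon carcinoma cells under the skin and was set against a PBS group, both in CD2F1 mice. The KPP tumour group came from a genetic model induced with tamoxifen and was set against mice of that model without tumour (C57BL/6). The labels name neither the alleles and promoter of the KPP model nor the sex and age of the mice. Muscles were taken at endpoint, and each group's 2 libraries carry the label of biological replicates, with nothing on animals or pooling, so p-values measure the spread between these libraries.

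Libraries held 22546541 to 36673780 estimated fragments, and the 10 fast myofibre markers, all of them detected, summed to 91829 to 219740 CPM (counts relative to TMM-scaled library size). The ribosomal protein genes took 1.67 to 4.53% of the fragments in tumour libraries and 1.33 to 1.78% in control libraries. Mitochondrially encoded transcripts took 5.94 to 16.9% in tumour libraries and 14.6 to 22.4% in control libraries. In bulk muscle, fewer cells of a type and less RNA per cell cannot be told apart.

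The coding sequences of Rpl3 and Rpl3l differed at 314 of 1210 aligned bases (74% identity), and no stretch of 31 bases was common to the transcripts of Rpl3l and of any other annotated gene. Reads of the 2 paralogues could therefore be told apart by sequence. The stretch below, codons 2 to 26, lies in exon 2 of both genes, on chr15:80082508-80082582 (minus strand) for Rpl3 and on chr17:24728317-24728391 (plus strand) for Rpl3l, build mm10. It is shown because it gives the density of differences between the paralogues, and capitals mark the 19 bases of Rpl3l that differ from Rpl3.
Rpl3: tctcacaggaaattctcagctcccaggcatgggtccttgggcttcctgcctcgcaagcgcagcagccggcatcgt
Rpl3l: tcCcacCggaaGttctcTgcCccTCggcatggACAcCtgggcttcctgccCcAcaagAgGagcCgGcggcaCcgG

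Starts of 4 members show the TOP tract beside its absence. RefSeq promoters (GRCm38.p6, 250 bases before and 50 after each annotated start) were found for 64 of the 84 genes, with 76 starts. Of these starts, 13 (17.1%) had a C at the start followed by at least 4 pyrimidines without a break, against 2.51% of the 32851 starts of all genes. The letters CCGGAAG, on either strand, were in 35.5% of the members' promoters and in 8.86% of all. The sequences run from 25 bases before the annotated start to 25 from it, and capitals mark the unbroken pyrimidine tract at the start. Rps27 (chr3:90213624-90213673, minus strand) and Rps6 (chr4:86857343-86857392, minus strand) were higher in tumour muscle. Rpl3l (chr17:24727801-24727850, plus strand, the first of its 2 annotated starts) and Rpl7l1 (chr17:46782632-46782681, minus strand) were lower on average over the models, and neither had the tract at this position. Most of the 76 starts of members lacked it as well, though 80 of the 82 tested members were higher on average. Whether the tract goes with direction was not tested. A tract at a start a few bases away would not be counted.
Rps27: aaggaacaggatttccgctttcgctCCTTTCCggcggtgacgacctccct
Rps6: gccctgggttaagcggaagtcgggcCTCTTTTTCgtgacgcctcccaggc
Rpl3l: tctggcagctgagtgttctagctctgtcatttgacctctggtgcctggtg
Rpl7l1: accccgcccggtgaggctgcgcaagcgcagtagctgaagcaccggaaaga

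The uL3 pair moved in opposite directions. Rpl3 rose in all 5 models and Rpl3l fell in the LLC and C26 models, so that Rpl3 made up a larger part of the pair's TPM in every tumour library than in any control of its own experiment. Rpl3l was at 273 and 275 TPM in LLC tumour muscle, against 474 and 472 TPM in LLC controls. It was at 532 and 497 TPM in KPCML1 muscle and at 423 and 394 TPM in KPC muscle, against 451 and 473 TPM in the Matrigel controls. Both LLC tumour libraries and both KPC libraries lay below their controls, and both KPCML1 libraries lay above theirs on this scale. C26 tumour muscle had 400 and 268 TPM of Rpl3l, against 568 and 463 TPM in C26 controls. KPP tumour muscle had 337 and 286 TPM, against 454 and 407 TPM in KPP controls. No tumour library of the C26 or KPP experiment overlapped its controls.

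By quasi-likelihood test in edgeR, with p adjusted by Benjamini-Hochberg over 16089 genes, Rpl3l fell in LLC muscle by 1.27 ± 0.24 on the log2 scale (SE, adjusted p = 0.00422) and in C26 muscle by 1.04 ± 0.24 (adjusted p = 0.00811). Its log2 fold change was -0.52 ± 0.24 in KPP muscle (adjusted p = 0.101), -0.18 ± 0.24 in KPC muscle (adjusted p = 0.596) and -0.19 ± 0.24 in KPCML1 muscle (adjusted p = 0.677), none of them called. The KPCML1 value has the opposite sign to the TPM levels, which are per transcript length and scaled within each library, not by TMM. The reason for this difference was not tested. Averaged over the 5 models, Rpl3l had a log2 fold change of -0.64 ± 0.12 (adjusted p = 0.000383). Without the second LLC tumour library the LLC call was lost (-1.17, adjusted p = 0.0676), and without the second C26 tumour library the C26 call was lost (-0.65, adjusted p = 0.0918). In KPP muscle the value was -0.75 without the first KPP tumour library and -0.25 without the second, neither called. It was called without the second C26 tumour library (-0.52, adjusted p = 0.0323) and with scaling by total counts (-0.56, adjusted p = 0.0385).

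Rpl3, the general form, was far less abundant than Rpl3l in control muscle. It was at 133 and 173 TPM in LLC tumour muscle, against 40.9 and 33.8 TPM in LLC controls. It was at 109 and 113 TPM in KPCML1 muscle and at 96.3 and 139.8 TPM in KPC muscle, against 40.7 and 37.3 TPM in Matrigel controls. In each of these 3 comparisons the lower tumour library was more than 2-fold above the higher control. C26 tumour muscle had 42.5 and 90.7 TPM, against 12.6 and 13.0 TPM in C26 controls. KPP tumour muscle had 195 and 364 TPM, against 73.4 and 49.8 TPM in KPP controls. The KPP library with the most Rpl3 had more Rpl3 than Rpl3l, which no other library showed for Rpl3 alone.

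The log2 fold change of Rpl3 was 1.49 ± 0.28 in LLC (SE, adjusted p = 0.00425), 1.08 ± 0.28 in KPCML1 (adjusted p = 0.0318), 1.43 ± 0.28 in KPC (adjusted p = 0.00271), 1.87 ± 0.29 in C26 (adjusted p = 0.000848) and 2.11 ± 0.29 in KPP muscle (adjusted p = 0.000179), by the same edgeR test. It was the only member called higher in all 5 models, a number that was not counted over all genes. The mean over models was 1.60 ± 0.15 (adjusted p = 1.46e-06). The test of differences among the models did not call Rpl3 (adjusted p = 0.314). The KPCML1 call was lost when any 1 of the 4 libraries it rests on was left out (adjusted p = 0.0642 to 0.194), and the LLC call was lost without the second LLC control (log2 fold change 1.29, adjusted p = 0.0579). In the authors' deposited tables, Rpl3 had log2 fold changes of 1.51 in LLC, 1.60 in KPC, 1.82 in C26 and 2.12 in KPP, and Rpl3l had -1.30, -0.19, -1.09 and -0.52 in the same order.

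As a share of the summed TPM of the pair, Rpl3 was at 32.8 and 38.5% in LLC tumour muscle, against 7.94 and 6.67% in LLC controls. It was at 17.0 and 18.5% in KPCML1 and at 18.6 and 26.2% in KPC muscle, against 8.28 and 7.31% in Matrigel controls. It was at 36.7 and 56.0% in KPP tumour muscle, against 13.9 and 10.9% in KPP controls. The log2 ratio of Rpl3l to Rpl3 TPM, tumour minus control, was -2.82 in the LLC experiment, -1.55 over both orthotopic groups, -2.93 in the C26 experiment and -2.61 in the KPP experiment. Their mean was -2.48, with p = 0.000309 in a two-sided exact permutation test over the 3240 assignments of labels within experiments, the smallest p these assignments can give. Each of the 10 tumour libraries had a lower ratio than every control of its experiment.

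**Figure D1:**
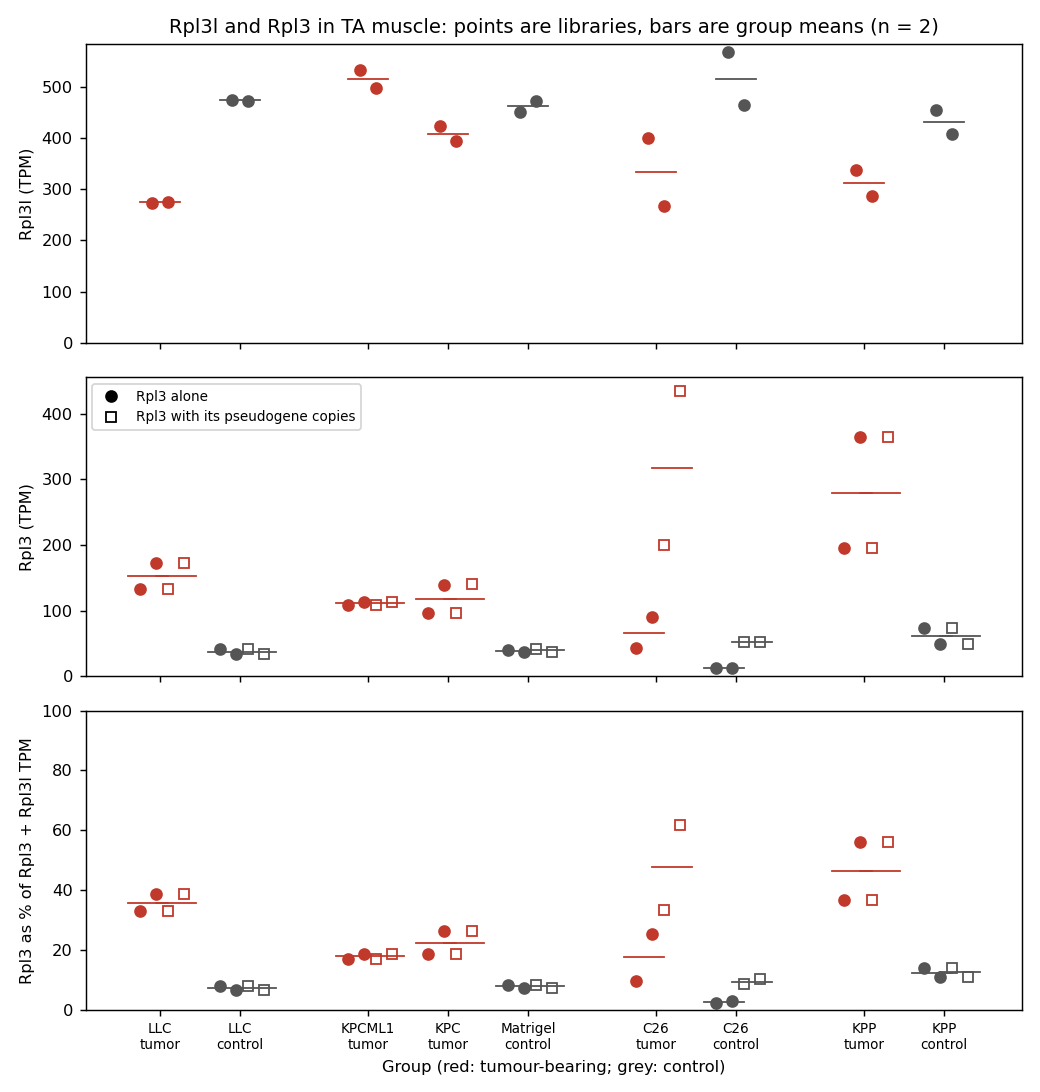
TPM of Rpl3l (top), TPM of Rpl3 (middle) and Rpl3 as a percent of the pair (bottom) in 18 TA muscle libraries, with tumour groups in red left of their controls in grey, points for libraries and bars for means of 2. Open squares add the pseudogene copies of Rpl3, which change the values visibly only in the C26 experiment, and Rpl3 made up 17.0 to 56.0% of the pair in the tumour libraries of the other experiments, against 6.67 to 13.9% in their controls.

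The C26 values of Rpl3 need its pseudogene beside them. Rpl3-ps1, a processed pseudogene on chromosome X, differs from the coding sequence of Rpl3 at 2 of 1209 aligned bases, C57A and T786C (Rpl3 base, position from the A of the start codon, pseudogene base). Both sites are shown because they are the coding bases on which a read's assignment to one or the other turns, and the capital marks the differing base. The Rpl3 stretches lie on chr15:80082509-80082549 and chr15:80079733-80079773 (minus strand, exons 2 and 6), and those of Rpl3-ps1 on chrX:13202608-13202648 and chrX:13203337-13203377 (plus strand), build mm10.
Rpl3 around base 57: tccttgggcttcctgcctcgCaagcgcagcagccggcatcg
Rpl3-ps1 around base 57: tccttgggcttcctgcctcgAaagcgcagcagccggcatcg
Rpl3 around base 786: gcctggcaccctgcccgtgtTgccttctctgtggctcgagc
Rpl3-ps1 around base 786: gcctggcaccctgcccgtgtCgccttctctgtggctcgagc

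In the CD2F1 mice of the C26 experiment Rpl3-ps1 was assigned 158 and 343 TPM in tumour muscle, against 40.0 and 39.0 TPM in controls. In the 14 C57BL/6 libraries it reached at most 0.62 TPM. Summed with its copies, Rpl3 was at 201 and 435 TPM in C26 tumour muscle, against 52.8 and 51.9 TPM in C26 controls, so its level in these controls was close to that in the C57BL/6 controls. On that sum Rpl3 made up 33.4 and 61.9% of the pair in C26 tumour muscle, against 8.50 and 10.1% in C26 controls. With the annotated pseudogene copies of all members pooled and edgeR's test rerun, the log2 fold change of Rpl3 in C26 was 2.07 (adjusted p = 0.000395). The mean log2 difference of the ratio was then -2.53 (p = 0.000309, exact permutation test).

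The same pattern was found for other members. By a rule of at least 10 TPM in all 4 C26 libraries and at least 10-fold over every C57BL/6 library, 14 pseudogene copies stood out, from 12 members. Gm8730, a copy of Rplp0 (a protein of the ribosomal stalk), held 611 and 1010 TPM in C26 tumour muscle, against 325 and 276 TPM in C26 controls, and at most 1.27 TPM in C57BL/6 libraries. Gm8210, a copy of Rpl29, held 778 and 1020 TPM in C26 tumour muscle, against 418 and 389 TPM in C26 controls, and at most 0.782 TPM elsewhere. Each of the 14 copies was also higher in both C26 tumour libraries than in both C26 controls, as most members were.

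**Figure D2:**
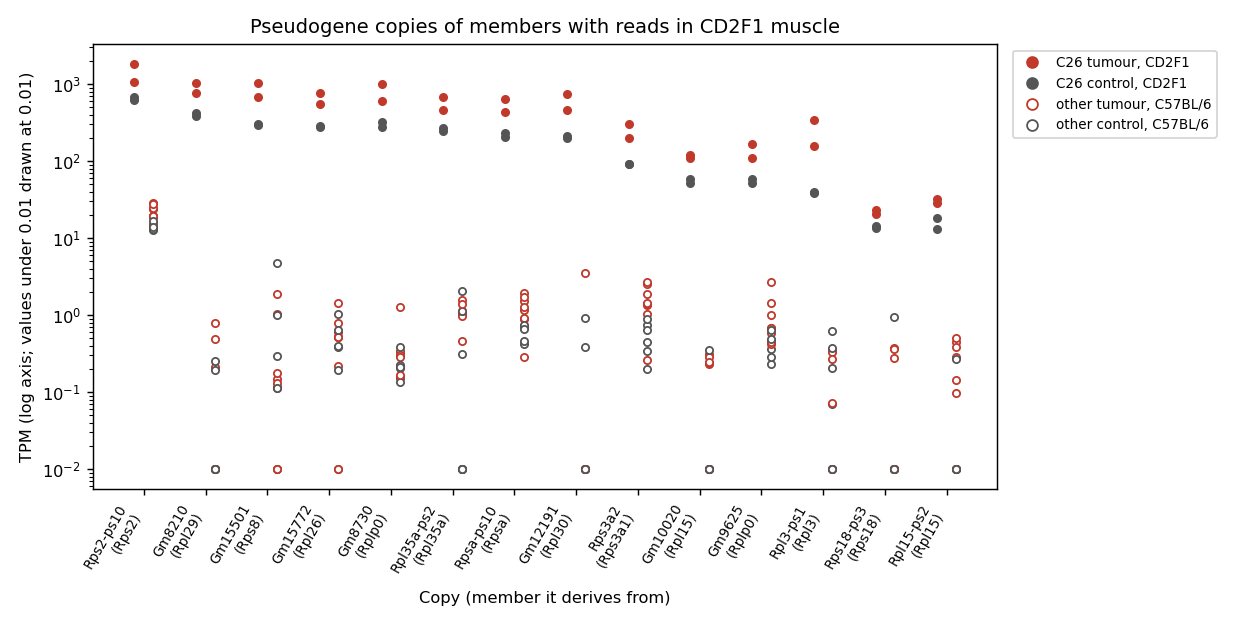
TPM on a log axis of the 14 pseudogene copies that stood out in CD2F1 muscle, with the member each derives from in brackets, filled points for the 4 C26 libraries and open points for the 14 C57BL/6 libraries, red for tumour and grey for control. Filled points lie at 13.0 TPM or above for every copy, and open points reach 28.7 TPM only for Rps2-ps10.

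Rpl3, Rps18 and Rpl21 were lower in both C26 controls than in every C57BL/6 control by more than 2-fold. Rps18, a protein of the small subunit head, was at 99.3 and 147 TPM in C26 tumour muscle, against 39.8 and 42.8 TPM in C26 controls, while the C57BL/6 controls had 527 to 685 TPM. Gm11361, the gene that shares most sequence with Rps18, was at 536 and 833 TPM in C26 tumour muscle, against 218 and 209 TPM in C26 controls, and reached 14.0 TPM in the rest. Levels of single members can therefore not be compared between the C26 experiment and the others, and strain and experiment cannot be told apart here. The comparisons within each experiment are of 1 strain.

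Across the whole set, tumour muscle had more ribosomal protein mRNA in 4 of the 5 models, least changed in LLC and most in KPP. KPP muscle had 80 of the 82 tested members called higher and 0 lower, where 36.7% of all tested genes were called (17.4% higher, 19.3% lower). C26 muscle had 72 higher and 1 lower, where 21.3% of all genes were called (11.5% higher, 9.8% lower). KPC muscle had 63 higher and 1 lower, where 29.1% of all genes were called (15.3% higher, 13.7% lower). KPCML1 muscle had 18 higher and 0 lower, where 8.53% of all genes were called (4.15% higher, 4.38% lower). LLC muscle had 2 higher and 1 lower, 3.66% of the members, where 13.6% of all genes were called (7.39% higher, 6.24% lower). Calls are those of edgeR's quasi-likelihood test at an adjusted p under 0.05.

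The median log2 fold change of the 82 members was 0.07 in LLC, 0.59 in KPCML1, 0.72 in KPC, 0.87 in C26 and 1.39 in KPP muscle, and that of all tested genes lay between -0.04 and 0.04. The medians of both subunits lay close to each other. In KPP muscle the median was 1.42 for the 50 tested members of the large subunit and 1.36 for the 32 of the small one, and in C26 muscle 0.87 and 0.88. Both tumour libraries lay above both controls for 80 members in KPP, 80 in C26, 78 in KPC, 75 in KPCML1 and 30 in LLC muscle, where 30.2, 34.3, 31.4, 30.8 and 31.7% of all tested genes did so.

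The scaling bears on the LLC value. The summed TPM of all members was 50972 and 54929 in LLC tumour muscle, against 37079 and 35790 in LLC controls; the members' TMM-scaled counts had a median log2 fold change of 0.07. Scaling by total counts alone moved the median of all genes by 0.25 in LLC, 0.18 in KPCML1, -0.15 in KPC and 0.28 in C26 (log2), and gave members' medians of 0.33, 0.76, 0.58 and 1.14 in these. In LLC the members' median under total counts was thus 0.33, where that of all genes had moved by 0.25. The part of scaling in the rise of the TPM sums was not tested. The KPP medians under total counts are not given here.

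Single libraries decided several of these counts. Shares of all genes called in the fits with a library left out are not given here. Without the first Matrigel control the KPC count was 6 and the KPCML1 count 0, and without the second they were 15 and 0. Without the first KPC library the KPC count was 21. The KPCML1 count was 0 without the second KPCML1 library and 30 without the first. It also moved when libraries of other groups were left out, to 38 without the first KPC library, to 31 or 29 without the first or second C26 tumour library, to 32 without the second KPP tumour library and to 10 without either LLC control or the second LLC tumour library. The C26 count was 12 without the first C26 control and 25 without the second C26 tumour library. The LLC count was 1 without the second LLC control or the second LLC tumour library. The KPP count stayed between 76 and 81 throughout.

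**Figure D3:**
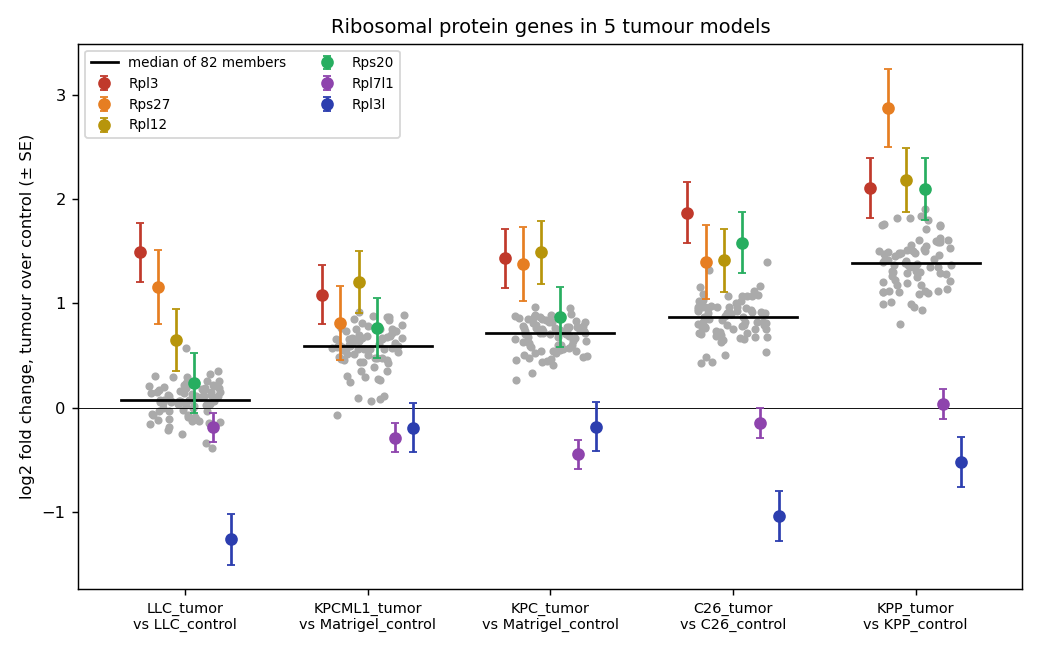
Log2 fold change, tumour over control, of the 82 tested ribosomal protein genes in each of the 5 comparisons, with 6 genes in colour with their standard errors, the others in grey and the median as a black line. The medians are 0.07, 0.59, 0.72, 0.87 and 1.39, Rpl3 lies at 1.08 to 2.11 and Rpl3l at -1.27 to -0.18.

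Averaged over the 5 models, every tested member was called, 80 higher and 2 lower, where 50.8% of all genes were called (25.2% higher, 25.7% lower). The 2 lower ones were Rpl3l and Rpl7l1. Of the 82 members, 1 was called higher in 5 models, 18 in 4, 42 in 3, 13 in 2, 6 in 1 and 2 in none. How many of all tested genes were called higher in as many models was not counted. The KPC and KPCML1 tumour groups, set against each other, had 0 members called, where 5.99% of all genes were called, and the members' median difference was 0.10.

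Among proteins of the large subunit, the largest mean shifts after Rpl3 were those of Rpl12 and Rpl10a. Rpl12, which sits at the base of the stalk where elongation factors bind, was at 25.2 and 37.9 TPM in LLC tumour muscle, against 13.5 TPM in both LLC controls. It was at 35.4 and 53.8 TPM in KPCML1 muscle and at 28.6 and 55.8 TPM in KPC muscle, against 12.0 and 11.8 TPM in Matrigel controls. C26 tumour muscle had 39.8 and 71.0 TPM, against 16.2 and 12.5 TPM in C26 controls, and KPP tumour muscle had 82.8 and 66.7 TPM, against 12.9 and 13.4 TPM in KPP controls. No tumour library overlapped its controls. The mean log2 fold change was 1.39 ± 0.15 (SE, edgeR adjusted p = 6.83e-06), and it was called in 4 models but not in LLC (0.65 ± 0.30, adjusted p = 0.172). Copies of Rpl12 held 96.2% of the summed TPM of gene and copies, and with copies pooled the mean was 1.11 (adjusted p = 2.85e-06). In the mean over all libraries, copies held the larger part of this sum for 11 members.

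Rpl10a, a protein of the L1 stalk by which spent tRNA leaves, had the smallest p of the set in the mean over models (0.99 ± 0.08, SE, edgeR adjusted p = 8.83e-07). It was at 816 and 1063 TPM in KPP tumour muscle, against 281 and 212 TPM in KPP controls. It was at 611 and 787 TPM in C26 tumour muscle, against 204 and 186 TPM in C26 controls. The lowest tumour library was more than 2-fold above the highest control in both experiments. Its log2 fold changes were 1.84 ± 0.17 in KPP (adjusted p = 3.05e-05), 1.32 ± 0.17 in C26 (adjusted p = 0.000252), 0.83 ± 0.17 in KPC (adjusted p = 0.00304) and 0.59 ± 0.17 in KPCML1 (adjusted p = 0.0445), and 0.36 ± 0.17 in LLC (adjusted p = 0.182).

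In the small subunit, Rps27 had the largest mean shift over models (1.52 ± 0.18, SE, edgeR adjusted p = 1.35e-05). It was at 1227 and 1580 TPM in KPP tumour muscle, against 152 and 214 TPM in KPP controls. LLC tumour muscle had 587 and 467 TPM, against 203 and 145 TPM in LLC controls. No library of these groups overlapped, and Rps27 was the only member besides Rpl3 called higher in LLC muscle (1.15 ± 0.36, SE, edgeR adjusted p = 0.0459), a call lost without any 1 of the 4 LLC libraries (adjusted p = 0.0878 to 0.28). The KPP value was 2.88 ± 0.37 (adjusted p = 0.000134), the largest of any member in any model. Rps27rt, a retrogene that shares sequence with Rps27, was at 3359 and 4531 TPM in KPP tumour muscle, against 949 and 921 TPM in KPP controls, and at 1607 and 1560 TPM in LLC tumour muscle, against 901 and 849 TPM in LLC controls. Reads divided between this pair make the value of either one uncertain.

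Rps20, a protein of the 40S head, was chosen for its value and had a mean log2 fold change of 1.11 ± 0.15 (SE, edgeR adjusted p = 2.96e-05). Copies of Rps20 held 64.6% of the summed TPM of gene and copies. Rps6, the substrate of S6 kinase, had the smallest p in KPCML1 muscle, with 609 and 775 TPM there and 610 and 507 TPM in KPC, against 299 and 292 TPM in Matrigel controls. All 4 tumour libraries lay above both controls, and its log2 fold change was 0.87 ± 0.19 in KPCML1 (adjusted p = 0.0142) and 0.89 ± 0.19 in KPC (adjusted p = 0.00406). Next in KPCML1 came Rps4x, the X-linked form of eS4 (0.84 ± 0.19, adjusted p = 0.0175), and Rpl7a of the large subunit (0.92 ± 0.21, adjusted p = 0.0185).

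Rps28, a small-subunit protein near the mRNA exit, was at 2198 and 3015 TPM in KPP tumour muscle, against 664 and 675 TPM in KPP controls, and at 1678 and 2544 TPM in C26 tumour muscle, against 577 and 547 TPM in C26 controls. Groups did not overlap in either experiment, and the log2 fold changes were 1.91 ± 0.21 (SE, edgeR adjusted p = 5.99e-05) and 1.40 ± 0.21 (adjusted p = 0.000616). Rps19, which is mutated in the human red cell disorder Diamond-Blackfan anaemia, had a mean of 0.90 ± 0.10 (adjusted p = 5.13e-06).

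Rplp1, Rpl36, Rpl13a and Rps14 were among the members of highest mean TPM over all libraries, between 1573 and 2038. Among the stalk proteins, Rplp0, Rplp1 and Rplp2 had mean log2 fold changes of 0.50 ± 0.10, 0.58 ± 0.09 and 0.91 ± 0.12 (SE, edgeR adjusted p = 0.000875, 0.000166 and 3.02e-05). Rpl5 and Rpl11, which bind 5S rRNA and can restrain Mdm2, had means of 0.65 ± 0.11 and 0.83 ± 0.12 (adjusted p = 0.000299 and 5.63e-05). Copies of Rpl5 held 93.8% of the summed TPM of gene and copies, so its value rests on the small part assigned to the gene itself. Rpsa, which also serves as a laminin receptor, had a mean of 0.55 ± 0.09 (adjusted p = 0.000237). Rps27a, made as a fusion with ubiquitin, had a mean of 0.74 ± 0.11 (adjusted p = 6.02e-05). Rack1, a scaffold on the 40S subunit outside the naming rule, had a mean of 0.81 ± 0.09 (adjusted p = 1.02e-05).

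The other paralogues were described beside their parents. Rpl7l1, a nucleolar relative of Rpl7 known from ribosome assembly, was the other member called lower in the mean over models (-0.21 ± 0.07, SE, edgeR adjusted p = 0.021), a call that 13 of the 18 fits with 1 library left out retained. Scaled counts of Rpl7l1 were 27.1 and 24.2 CPM in KPC muscle, against 34.1 and 36.0 CPM in Matrigel controls, the only model with a call (-0.45 ± 0.14, adjusted p = 0.0289), and that call held in 1 of the 4 fits without a library of its own. Rpl7 itself had a mean of 0.56 ± 0.10 (adjusted p = 0.000272).

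Rpl22l1 had a mean of 0.58 ± 0.16 (SE, edgeR adjusted p = 0.00698), against 0.82 ± 0.09 for its parent Rpl22 (adjusted p = 1.01e-05). Rps27l, a target of p53, had a mean of 0.44 ± 0.12 (adjusted p = 0.00724) and was called in KPP alone (0.99 ± 0.25, adjusted p = 0.00683). Rpl36al had a mean of 0.36 ± 0.12 (adjusted p = 0.0254), against 0.84 ± 0.10 for Rpl36a (adjusted p = 1.47e-05), and was also called in KPP alone (0.80 ± 0.25, adjusted p = 0.0235). All 3 lay nearer to 0 than their parents in the mean, and these differences between genes were not tested. Rpl10, whose relative Rpl10l was listed at 0, had a mean of 0.90 ± 0.13 (adjusted p = 5.1e-05). Copies of Rpl10 held 74.4% of the summed TPM of gene and copies. Rpl39, the parent of the untested Rpl39l, had a mean of 0.58 ± 0.10 (adjusted p = 0.00034).

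Rpl3 and Rpl12 also had isoforms annotated to nonsense-mediated decay, the route that removes mRNAs with early stop codons. In human cells, both genes are known to produce such isoforms when their protein is in excess. The decay isoform of Rpl12 was at 42.0 and 22.7 TPM in KPP tumour muscle, against 3.67 and 2.54 TPM in KPP controls. It was at 12.5 and 26.5 TPM in KPCML1 muscle and at 11.01 and 32.9 TPM in KPC muscle, against 2.39 and 1.36 TPM in Matrigel controls. The C26 tumour libraries had 9.26 and 23.0 TPM, against 3.24 and 1.45 TPM in C26 controls, and LLC tumour libraries had 5.60 and 7.81 TPM, against 1.78 and 1.84 TPM in LLC controls. Every tumour library lay above every control library of the series.

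The share of the decay isoform in Rpl12 was 50.7 and 34.0% in KPP tumour muscle, against 28.3 and 18.9% in KPP controls. It was 38.5 and 58.9% in KPC muscle, against 19.9 and 11.5% in Matrigel controls. These are shares of the TPM assigned to Rpl12 itself. Its copies held 96.2% of the summed TPM of gene and copies, and against that sum the shares would be far smaller. For Rpl3 the decay isoform was at 9.19 and 43.1 TPM in KPC muscle (9.54 and 30.8% of Rpl3) and at 8.795 and 5.98 TPM in KPCML1 muscle, against 1.44 and 1.66 TPM in Matrigel controls. In LLC it was at 1.96 and 2.81 TPM in tumour muscle, against 0.296 and 0.983 TPM in controls, 1.47 and 1.63% of Rpl3 against 0.725 and 2.91%. In C26 it was at 2.92 and 1.00 TPM in tumour muscle, against 1.42 and 1.10 TPM in controls, 6.87 and 1.10% of Rpl3 against 11.3 and 8.49%. In KPP it was at 4.43 and 4.46 TPM in tumour muscle, against 1.35 and 2.03 TPM in controls, 2.27 and 1.22% of Rpl3 against 1.84 and 4.08%. One KPC library thus stood far above all others for Rpl3. The shares of Rpl3 overlapped in LLC and KPP muscle and were lower in both C26 tumour libraries than in both C26 controls. The C26 shares would be smaller with Rpl3-ps1 counted, at 158 and 343 TPM in tumour muscle and 40.0 and 39.0 TPM in controls. These are Salmon's divisions of shared reads among transcripts, and no test was run on them.

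**Figure D4:**
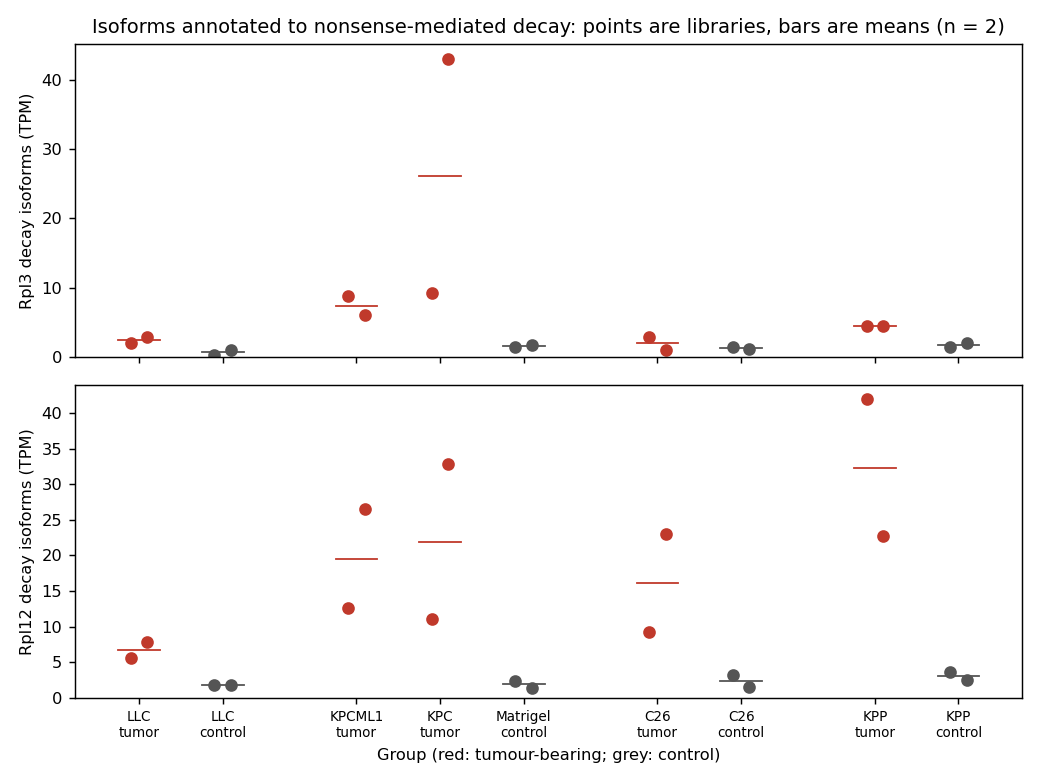
TPM of the isoforms of Rpl3 (top) and Rpl12 (bottom) annotated to nonsense-mediated decay in each library, tumour groups in red left of their controls in grey, with bars for means of 2. For Rpl12 the tumour libraries lie at 5.60 to 42.0 TPM and the controls at 1.36 to 3.67 TPM, and for Rpl3 the KPC group reaches 43.1 TPM.

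Models were compared with each other for the size of the shift. A joint test of the 5 effects called 26 of the 82 members, where 8.32% of all genes were called, and Rpl10a (adjusted p = 0.0122), Rps28 (adjusted p = 0.0148), Rps19 (adjusted p = 0.0225) and Rpsa (adjusted p = 0.0306) were among those of smallest p in this edgeR test. In pairs of models, the KPP effect exceeded the LLC effect for 75 members, where 3.94% of all genes had a larger effect in KPP, with a median difference of 1.33. It exceeded the KPCML1 effect for 10 members, where 1.04% of all genes did so, among them Rpl10a by 1.25 ± 0.24 (SE, adjusted p = 0.0218) and Rps27 by 2.07 ± 0.50 (adjusted p = 0.0416). With pseudogene copies pooled this count was 6. The other 8 pairs had 0 members called, which does not show that the effects were alike. Among all genes, 0.18% differed between KPCML1 and LLC, 1.84% between KPC and LLC, 0.466% between C26 and LLC, 5.99% between KPC and KPCML1, 0.0186% between C26 and KPCML1, 0.87% between C26 and KPC, 0.0373% between KPP and KPC and 1.08% between KPP and C26. The joint count ranged from 2 to 55 over the fits with 1 library left out, at 2 without the first KPP control, the first LLC control or either LLC tumour library, and at 55 without the first KPC library.

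Lists of related genes were described by their counts and medians. Of all tested genes, 7.39% were higher and 6.24% lower in LLC, 4.15 and 4.38% in KPCML1, 15.3 and 13.7% in KPC, 11.5 and 9.8% in C26 and 17.4 and 19.3% in KPP, and each list's counts are to be read against these shares. Of 20 other TOP mRNAs (elongation and initiation factors, Rack1, Npm1 and the like), 16 were higher and 1 lower in KPP, 11 and 0 in C26, 15 and 1 in KPC, 10 and 0 in KPCML1 and 3 and 0 in LLC muscle, with medians of 1.24, 0.73, 0.85, 0.71 and 0.28. Examples were Npm1, a nucleolar chaperone, at 1.76 in KPP, and Nap1l1, a histone chaperone, at 1.25 in LLC. Vim, an intermediate filament gene of non-muscle cells, was the one that fell, by 1.73 in KPP and by 1.15 in KPC. Differences between this list and the ribosomal proteins were not tested.

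Of 50 genes of ribosome biogenesis, 28 were higher and 0 lower in LLC muscle, with a median of 0.71, where the ribosomal proteins themselves had a median of 0.07. They numbered 36 higher and 0 lower in KPP, 25 and 1 in C26, 31 and 0 in KPC and 10 and 0 in KPCML1, with medians of 0.81, 0.73, 0.81 and 0.45. Nop14, of small-subunit processing, was higher in each model, at 1.23 in LLC and 1.99 in KPP. Ddx21, a helicase of rRNA transcription and processing, was at 1.52 in LLC.

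The 78 mitochondrial ribosomal proteins, which serve the separate ribosome of that organelle, were not raised as a group. They numbered 0 higher and 20 lower in LLC, 1 and 6 in KPCML1, 3 and 11 in KPC, 2 and 17 in C26 and 15 and 10 in KPP muscle, with medians of -0.44, -0.22, -0.10, -0.20 and 0.10. The 11 lower in KPC and the 15 higher in KPP lie near the shares of all genes. Mrpl19 fell in every model, by 1.05 in LLC and by 1.39 in KPP, while Mrps30 rose by 1.46 in KPP.

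Of 23 genes of growth control of translation, 7 were higher and 1 lower in LLC, 5 and 0 in KPCML1, 12 and 2 in KPC, 8 and 1 in C26 and 11 and 1 in KPP, with medians of 0.45, 0.18, 0.57, 0.21 and 0.52. Eif4ebp1, which encodes the repressor 4E-BP1 of cap-dependent translation, rose in every model, by 1.54 in LLC, 2.54 in KPCML1, 3.18 in KPC, 3.09 in C26 and 3.96 in KPP (log2). Eif4e, the cap-binding factor it blocks, fell by 1.48 in LLC, by 0.71 in KPC and by 0.86 in C26. Mtor rose by 0.90 in LLC and by 1.43 in C26, and Sesn1, an inhibitor of mTORC1, rose by 4.10 in KPP. Myc and Ddit4 rose by 3.20 and 3.82 in LLC. Values of these genes in the remaining models are not given here.

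**Figure D5:**
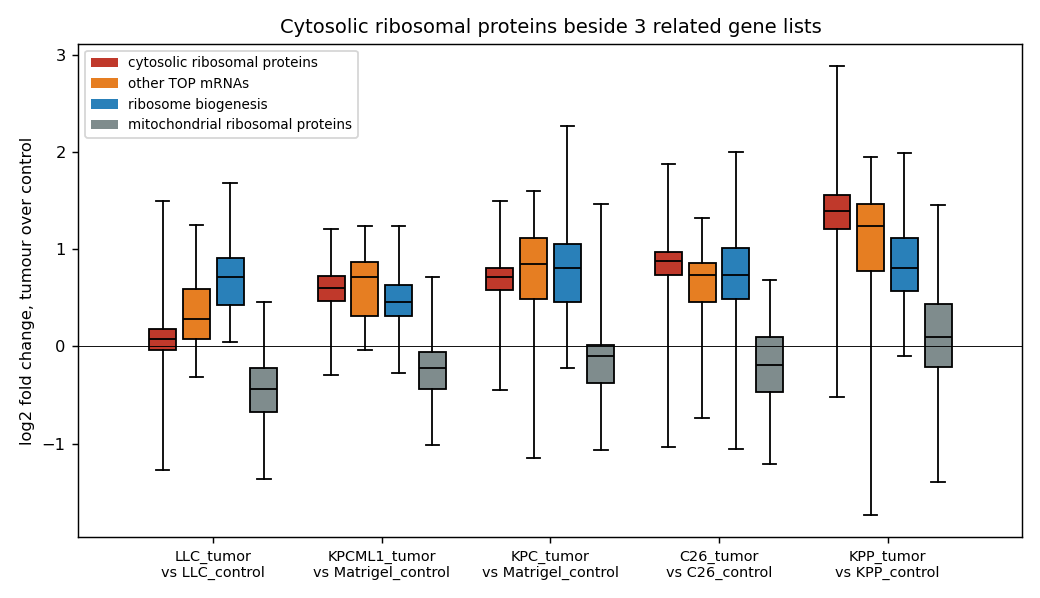
Log2 fold changes, tumour over control, of the cytosolic ribosomal proteins and of 3 related lists in each comparison, with boxes for quartiles, black lines for medians and whiskers for the full range. In LLC muscle the ribosomal proteins have a median of 0.07 and ribosome biogenesis 0.71, and the mitochondrial ribosomal proteins lie lowest in each comparison, with medians of -0.44 to 0.10.

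Markers of other cells were called in each model, and their part in the members' results was not tested. These counts, too, are to be read against the shares of all genes given above, and some lie near them. Erythroid markers numbered 6 of 9 higher in LLC, 9 in KPCML1, 8 in KPC and 0 in C26 and KPP. They summed to 867 to 2609 CPM in LLC tumour muscle, against 295 to 382 CPM in LLC controls, and to 2978 to 6850 CPM in KPCML1 and 2102 to 2311 CPM in KPC, against 359 to 399 CPM in Matrigel controls. C26 tumour muscle had 147 to 289 CPM, against 294 to 316 CPM in C26 controls, and KPP tumour muscle had 462 to 3212 CPM, against 426 to 892 CPM in KPP controls. In C26 the highest tumour sum lay just under the lowest control sum, 289 against 294 CPM, and no marker was called.

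Neutrophil markers, 10 of 13 tested, numbered 2, 5, 9, 5 and 6 higher in LLC, KPCML1, KPC, C26 and KPP, and summed to at most 140 CPM in any tumour library, against at most 5.52 CPM in any control. Fibro-adipogenic markers were lower in 5, 3, 6, 4 and 7 of 10 in the same order, and tendon markers in 2, 1, 4, 2 and 5 of 7. Of the fibro-adipogenic list 1 marker was higher in KPCML1 and in C26, and 1 tendon marker in C26 and in KPP. Endothelial markers were lower in 8 of 10 in KPP, with 1 higher in LLC, KPCML1 and KPC. T and B cell markers, of which 2 of 11 had enough counts, had 1 lower in each model. Macrophage markers were higher in 5 of 15 in KPCML1 and 2 in KPC and KPP, with 1 lower in KPC. Adipocyte markers were higher in 1, 4 and 4 of 8 in LLC, KPCML1 and KPC and lower in 4 and 6 in C26 and KPP. Satellite cell markers had 1 higher in LLC, C26 and KPP and 2 in KPC, and 2 lower in KPCML1, 3 in KPC and 3 in KPP. No list had a marker at 0 in every library. Myofibre markers were lower in 1 of 10 in LLC, 3 in C26 and 2 in KPP, and higher in 1 in KPC and 2 in KPP.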

How the data were processed

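Per the submitters' processing notes, reads were demultiplexed with bcl2fastq (2.20) and quantified with Salmon on build mm10. Neither Salmon's version nor its strand option or transcript release is stated there. The deposited file of each library held, per transcript, estimated counts (expected counts of fragments, not normalised by the authors), TPM (scaled within the library by Salmon) and effective lengths, a signal-like length that the authors' tool computed. The authors deposited 5 DESeq2 tables, with log2 fold changes and p-values, of which 4 were used. The remaining one is named for a cell number that differs from the labels.

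Transcripts were matched to GENCODE M21 (139881 of 140825), and counts were summed per gene and rounded. Members were found by symbol. edgeR (4.0.16) kept 16089 genes with filterByExpr, scaled libraries by TMM and fitted 1 quasi-likelihood model of 9 groups (9 residual degrees of freedom). Adjustment was by Benjamini-Hochberg over these genes, with calls at 0.05. The mean tumour effect averages the 5 contrasts. Shared sequence was counted in words of 31 bases, and 641 pseudogene copies with at least 100 shared words were pooled in an alternative. Copies annotated as protein-coding, such as Gm11361, were not pooled. TPM is per length and is used for levels between genes, and fold changes come from TMM-scaled counts. Each library's total, 22546541 to 36673780 fragments, sets its precision.

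Described in full were Rpl3l and Rpl3, other members with an l suffix beside their parents, up to 3 called members of smallest p per direction and comparison, the 5 of highest TPM, the 5 of smallest p in the joint test and 9 members or partners of known separate function. Some members that this rule names are not reported here. The members and lists were chosen with earlier results of these data known. Alternatives were relative-log-expression size factors, DESeq2 (1.42.0), no filter, length-scaled counts, members left out of scaling, a replicate block, each experiment alone and each library left out. Added after seeing the data were scaling by total counts, pooled copies, a crossed block and leaving out mitochondrially encoded genes. The model and the permutation test were tested on simulated data with known changes. R 4.3.3 and Python 3.11.15 were used.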

Additional observations from a re-analysis of the deposited data

Results flagged for a closer look

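The size of the tumour effect differed between models for many ribosomal protein genes. The joint test of differences among the 5 models called 26 of 82 members, where 8.32% of all genes were called. The KPP effect was larger than the LLC effect for 75 members, where 3.94% of all genes were so called, and larger than the KPCML1 effect for 10, where 1.04% were, by edgeR's test of the difference itself. With pseudogene copies pooled the last count was 6.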

How the results depend on the processing

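The mean effect over models (79 to 82 members called), the KPP count (76 to 81) and the C26 count under all but leave-one-out settings held within 1.5 times. The log2 ratio of Rpl3l to Rpl3 kept its call in each setting: -2.69 to -2.27 with 1 library left out, -2.43 on estimated counts, -2.48 with the replicate block and -2.53 with copies pooled.

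Counts of members moved as follows. Of KPCML1's 18, DESeq2 called 44, no filter 32, length-scaled counts 11, its experiment alone 2, total counts 48 and the crossed block 11. Of KPC's 64, the experiment alone gave 41 and total counts 31. Of LLC's 3, both settings gave 5. KPC against KPCML1 (0 called, with 2 members, Rpl10 among them, at an unadjusted p under 0.05) gave 2 with DESeq2 and 1 without a filter. Of the 26 in the joint test, relative-log-expression factors gave 40, DESeq2 75, no filter 71, length-scaled counts 10, total counts 5 and the crossed block 14. With 1 library left out, counts ran from 1 to 4 in LLC, 0 to 38 in KPCML1, 6 to 69 in KPC, 12 to 75 in C26, 0 to 1 in KPC against KPCML1 and 2 to 55 in the joint test. The spread of a lone library was taken from the remaining groups. The causes were not tested. Shares of all genes called under these settings are not given here. The counts therefore do not show whether members moved apart from other genes.

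Rpl3l between KPC and KPCML1 (0.01, not called) took the opposite sign in the experiment alone (-0.027), with total counts (-0.29) and with 1 library left out (-0.020 to 0.022).

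Same-numbered libraries did not deviate together (correlations of -0.17 to 0.09), so numbers were not taken as pairs. With replicate number as a block, counts were 2, 15, 61, 71 and 80 in LLC, KPCML1, KPC, C26 and KPP, 82 in the mean and 19 in the joint test. Crossing the KPP numbers, after their correlation of -0.17, left 80 in KPP. An exact test of 1 experiment with 2 tumour libraries against 2 controls cannot go below p = 0.33. Rpl39l, at most 0.439 TPM, and Rpl10l had too few counts to be tested, and the reason for this was not tested.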
